A study of Mus musculus with 6 samples.

Results

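Chymotrypsins, pancreatic elastases and pancreatic carboxypeptidases are the protein-cutting enzymes that acinar cells of the exocrine pancreas secrete beside trypsin. Of the 8 genes chosen by symbol for this account, 7 were among the 11106 genes of the table. They were the chymotrypsin genes Ctrb1 and Ctrl, the elastase genes Cela1, Cela2a and Cela3b, and the carboxypeptidase genes Cpa1 and Cpb1. The remaining gene, Ctrc (chymotrypsin C), was not analysed here.

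All of these enzymes are made as inactive zymogens, stored in zymogen granules and released into the duct system, and trypsin cuts them into active form in the gut. Chymotrypsins cut proteins after large hydrophobic residues, elastases after a range of uncharged residues, and the carboxypeptidases remove single residues from the C-terminal end: carboxypeptidase A1 favours aromatic and aliphatic residues and carboxypeptidase B1 favours arginine and lysine. Their mRNAs are among the most abundant in acinar cells and are not products of the endocrine cells of an islet. In bulk RNA such as this, a difference in the number of acinar cells carried along with the islets cannot be told apart from a difference in RNA per acinar cell.

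The libraries were made from pancreatic islets of 6 male mice. Ern1EC-KO mice (knockout 11, 12 and 13) carried floxed Ern1, which encodes the stress sensor IRE1α, together with VE-cadherin-Cre-ERT2, a tamoxifen-inducible Cre that acts in vascular endothelial cells. Ern1fl/fl mice (floxed 8, 18 and 19) were littermates with the floxed alleles and no Cre in their label. Both groups received 2 mg of tamoxifen on each of 5 days at 4 weeks of age and, from 8 weeks of age, a diet with 60% of its calories from fat for 16 weeks. The Cre driver is used for endothelial cells, which are few in an islet. Ern1 in whole islets had 41.9, 36.0 and 46.8 CPM (counts scaled to library size with TMM factors) in knockout 11, 12 and 13, while floxed 8, 18 and 19 had 30.1, 44.6 and 46.0 CPM. Its log2 fold change (log2FC, knockout over floxed) was 0.05 with a standard error (SE) of 0.17 (edgeR quasi-likelihood test, p adjusted over all genes = 0.920), so whole-islet Ern1 neither bears out nor contradicts the genotype labels. Values per library follow this order of animals throughout.

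Library totals ran from 18470736 to 18957459 counts, so 1 CPM stood for 17.3 to 20.8 counts. The insulin genes Ins1 and Ins2 together held 28.2% to 37.2% of counts in knockout islets and 40.1% to 43.4% in floxed islets. Floxed 8 stood apart from its group: the 10 immediate early and heat shock genes, which respond to tissue handling, held 1.20% of its counts, against 0.218% in floxed 18, 0.207% in floxed 19 and 1.76% to 1.87% in the knockout libraries. It also differed from floxed 18 and 19 in cell type markers. Alpha cell markers held 3.15% of its counts, against 1.88% and 1.70%. Endothelial markers held 0.0436%, against 0.0679% and 0.0614%, and red cell markers 0.00815%, against 0.0242% and 0.0281%. Knockout 12 stood apart in other markers: the 7 measured pericyte and stellate genes held 0.0217% of its counts, against 0.00767% to 0.0128% in the other 5 libraries, and the 5 macrophage genes 0.0279%, against 0.0138% to 0.0194%. Within the first list the excess lay in Col1a1, Col3a1 and Lum (44.7, 70.6 and 16.1 CPM in knockout 12). Rgs5, Acta2, Des and Pdgfrb lay within the range of the other libraries. In neither list did a gene pass the edgeR test with all libraries. The fold changes of the enzyme genes are therefore also given without floxed 8, and without knockout 12 they lay between 1.35 and 1.57 on the log2 scale with 0 of 7 called (edgeR, smallest adjusted p = 0.212). The lowest count of any of the 7 enzyme genes was 15013 (Ctrl in floxed 18), so counting error was small beside the spread between animals.

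The 7 genes are spread over the genome and their mRNAs differ in sequence. Ctrb1 (Entrez 66473) lies on chromosome 8 from 111686510 to 111691010 and Ctrl (Entrez 109660) on the same chromosome from 105931994 to 105933862, 5753 kb apart. Cela1 (Entrez 109901) lies on chromosome 15 from 100674422 to 100687920. Cela2a (Entrez 13706) lies on chromosome 4 from 141814954 to 141826005 and Cela3b (Entrez 67868) on chromosome 4 from 137421008 to 137430520. Cpa1 (Entrez 109697) lies on chromosome 6 from 30639218 to 30645361 and Cpb1 (Entrez 76703) on chromosome 3 from 20249479 to 20275733 (all GRCm38.p6, RefSeq). Cpa1 is on the plus strand and the other 6 genes are on the minus strand.

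Most pairs of these mRNAs can be told apart by 150-base reads. Between Ctrb1 and Ctrl 63.2% of aligned transcript bases were identical, with a longest shared run of 23 bases, and between Cpa1 and Cpb1 59.5% were. The exception is outside the 7 genes: Cela3a, 11.2 kb from Cela3b, shared 94.5% of aligned bases with it and a run of 163 bases. The counts of Cela3b were not whole in 2 of the 6 libraries, so its split from Cela3a is uncertain. Annotated exons of Cela2a overlap those of Ctrc on the same strand and of Casp9 on the opposite strand. Casp9, a caspase gene, stood at 5.94 to 7.57 CPM in all 6 libraries, far under Cela2a, while the part of Ctrc in the Cela2a counts was not tested.

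The upstream sequences of 3 of these genes are shown. Of these, 2 hold the paired letters that the acinar factor complex PTF1 is known to bind. The third, Cpa1, holds the TC-box on the other strand without the pair. Cela2a also holds a TC-box on the other strand (bases -84 to -79) and is not shown. PTF1 joins Ptf1a, which binds an E-box (CANNTG), to Rbpjl, which binds a TC-box (TTTCCC). Sequences are from RefSeq, GRCm38.p6, 5′ to 3′ on the gene's strand and upstream of the transcript start. Capitals mark an E-box that lies within 10 bases of a TC-box, the TC-box on either strand (GGGAAA on the other strand), AAGGTCA (the site of the nuclear receptor Nr5a2), TATAAA, and ATAAA close to the start.
Ctrb1, chr8:111691011-111691230, minus strand: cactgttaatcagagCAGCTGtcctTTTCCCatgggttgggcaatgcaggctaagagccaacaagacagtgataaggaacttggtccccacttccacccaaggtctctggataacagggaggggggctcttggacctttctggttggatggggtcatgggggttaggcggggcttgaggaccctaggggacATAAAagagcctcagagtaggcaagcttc
Cela1, chr15:100687922-100688070, minus strand: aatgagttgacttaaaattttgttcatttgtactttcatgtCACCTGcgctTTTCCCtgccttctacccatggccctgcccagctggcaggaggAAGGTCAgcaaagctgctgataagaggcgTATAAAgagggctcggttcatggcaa
Cpa1, chr6:30639068-30639217, plus strand: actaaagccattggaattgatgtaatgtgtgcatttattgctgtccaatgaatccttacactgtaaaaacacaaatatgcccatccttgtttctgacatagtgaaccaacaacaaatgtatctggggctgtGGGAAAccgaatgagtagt

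In the Ctrb1 sequence the E-box CAGCTG and the TC-box span bases -205 to -190 before the start, and in Cela1 the E-box CACCTG and the TC-box span bases -109 to -94. All 7 promoters were matched in the RefSeq table by gene identifier, and the 250 bases before each start were searched on both strands. An E-box was found in 7 of 7, against 62.8% of 21263 promoters of protein-coding genes, and a TC-box in 4 of 7, against 22.2%. The pair within 10 bases was found in 2 of 7, against 1.87%. The Nr5a2 letters AAGGTCA were found in Cela1 alone among the 7, against 3.59% of all promoters, and TATAAA likewise in Cela1 alone, against 11.6%. The shorter ATAAA between 44 and 20 bases before the start, a motif chosen after the sequences were seen, was found in Ctrb1, Cela1 and Cela2a, against 4.90% of all promoters, and it lies within TATAAA in Cela1. The E-box letters can overlap other motifs. These matches are a description of letters and not of binding. GENCODE transcripts begin upstream of the RefSeq start for Cela2a by 155 bases, for Cela3b by 20 and for Cela1 by 1, so matches placed by distance from the start depend on the annotation.

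For each of the 7 genes the lowest knockout library lay above the highest floxed one, with mean folds between 2.47 (Cela2a) and 2.95 (Cpa1). None passed the edgeR quasi-likelihood test over all genes with 6 libraries: 0 of 7 had an adjusted p below 0.05, and the adjusted p ran from 0.0982 (Cpb1) to 0.194 (Cela2a). All 7 had an unadjusted edgeR p below 0.05. Over the 11080 genes tested, 0.406% were called, 0.343% as higher in knockout islets, 17.9% had an unadjusted p below 0.05 in either direction, and 14.1% were higher with no overlap between the groups. Without floxed 8 all 7 genes were called higher in knockout islets (edgeR adjusted p from 0.00378 to 0.00721), where 8.59% of tested genes were called higher. Floxed 8 was the highest floxed library for each of the 7 genes, so leaving it out widens their difference by construction. Without floxed 18, the lowest library, 0 of 7 were called, with log2 fold changes of 0.95 to 1.22 (edgeR adjusted p from 0.147 to 0.307). DESeq2 called 6 of the 7 higher with all 6 libraries, all but Cela2a, beside 3.88% of all genes.

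**Figure D1:**
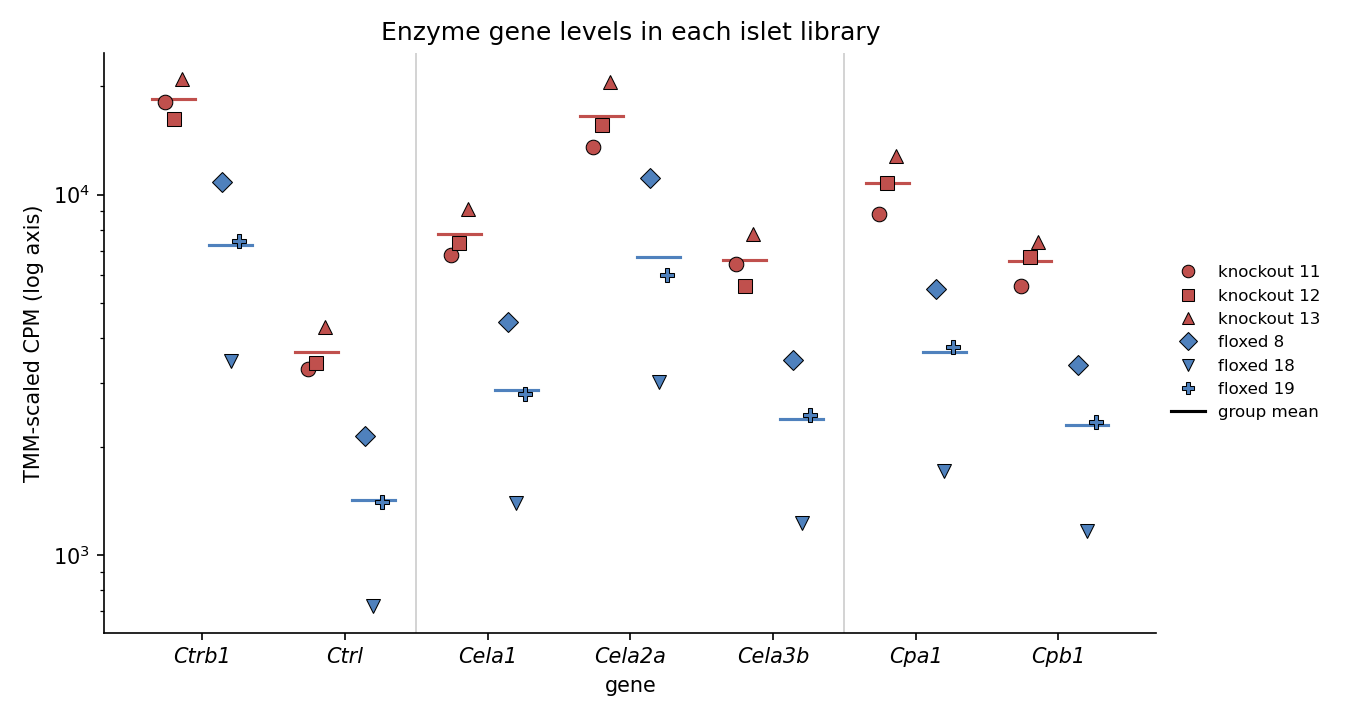
TMM-scaled CPM on a log axis for each of the 7 enzyme genes, with 1 point per library and a line at each group mean (knockout left of floxed, n = 3 each). The 3 knockout points lie above the 3 floxed points in every gene, floxed 18 is the lowest library throughout, and floxed 8 is the highest floxed library.

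Among the chymotrypsin genes, Ctrb1, which encodes chymotrypsinogen B1, had 18040, 16238 and 20899 CPM in knockout islets, while floxed islets had 10874, 3453 and 7422 CPM. The groups did not overlap, and the floxed libraries were more widely spread than the knockout ones. Its mean was 18393 ± 2351 CPM in the knockout group and 7250 ± 3713 CPM in the floxed group (SD, n = 3 each), log2FC 1.34 (SE 0.42, 95% interval 0.39 to 2.30, edgeR adjusted p = 0.154). Without floxed 8 the log2FC was 1.75 (edgeR adjusted p = 0.00721). Ctrb1 was the fifth or sixth most counted gene of each knockout library and ranked 7 to 9 in the floxed ones.

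Ctrl, the chymotrypsin-like gene chymopasin, was the least counted member of the set in every library. It had 3273, 3407 and 4299 CPM in knockout islets, while floxed islets had 2142, 721 and 1404 CPM. The gap between the lowest knockout and the highest floxed library was 1.53-fold. The log2FC was 1.36 (SE 0.37, edgeR adjusted p = 0.121), and 1.78 without floxed 8 (edgeR adjusted p = 0.00504).

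Among the elastase genes, Cela2a had the most counts and the smallest fold change of the 7 genes. It had 13564, 15610 and 20576 CPM in knockout islets, while floxed islets had 11144, 3025 and 5978 CPM. Floxed 8 came close to the knockout range: the lowest knockout library was 1.22-fold above it, the narrowest gap among the 7 genes. The log2FC was 1.30 (SE 0.46, 95% interval 0.25 to 2.35, edgeR adjusted p = 0.194). Leaving out floxed 8 moved it to 1.87 (edgeR adjusted p = 0.00494), the largest step of any of the 7 genes.

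Cela1, known in the mouse as the pancreatic elastase gene Ela1, had 6824, 7348 and 9121 CPM in knockout islets, while floxed islets had 4439, 1394 and 2802 CPM. Its groups did not overlap, and its log2FC was 1.43 (SE 0.40, edgeR adjusted p = 0.125), and 1.88 without floxed 8 (edgeR adjusted p = 0.00398). Cela3b, an elastase family gene whose counts may be shared with Cela3a, had 6414, 5588 and 7772 CPM in knockout islets, while floxed islets had 3475, 1229 and 2446 CPM. The lowest knockout library of Cela3b was 1.61-fold above the highest floxed one. Its log2FC was 1.47 (SE 0.37, edgeR adjusted p = 0.104), and 1.84 without floxed 8 (edgeR adjusted p = 0.00476).

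The carboxypeptidase genes had the 2 largest fold changes of the set. Cpa1, which encodes pro-carboxypeptidase A1, had 8835, 10767 and 12768 CPM in knockout islets, while floxed islets had 5485, 1709 and 3778 CPM. Its mean was 10790 ± 1967 CPM in the knockout group and 3657 ± 1891 CPM in the floxed group (SD, n = 3 each), log2FC 1.56 (SE 0.42, edgeR adjusted p = 0.113), and 1.97 without floxed 8 (edgeR adjusted p = 0.00684).

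Cpb1, which encodes pro-carboxypeptidase B1, had 5587, 6709 and 7376 CPM in knockout islets, while floxed islets had 3374, 1165 and 2344 CPM. Its gap between the lowest knockout and highest floxed value was 1.66-fold, the widest among the 7 genes. Its log2FC was 1.51 (SE 0.37, 95% interval 0.67 to 2.36, edgeR adjusted p = 0.0982), and without floxed 8 the log2FC was 1.90 (edgeR adjusted p = 0.00378). An exact two-sided permutation test of CPM gave p = 0.10 for each of the 7 genes, the smallest value that 3 against 3 libraries allow.

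**Figure D2:**
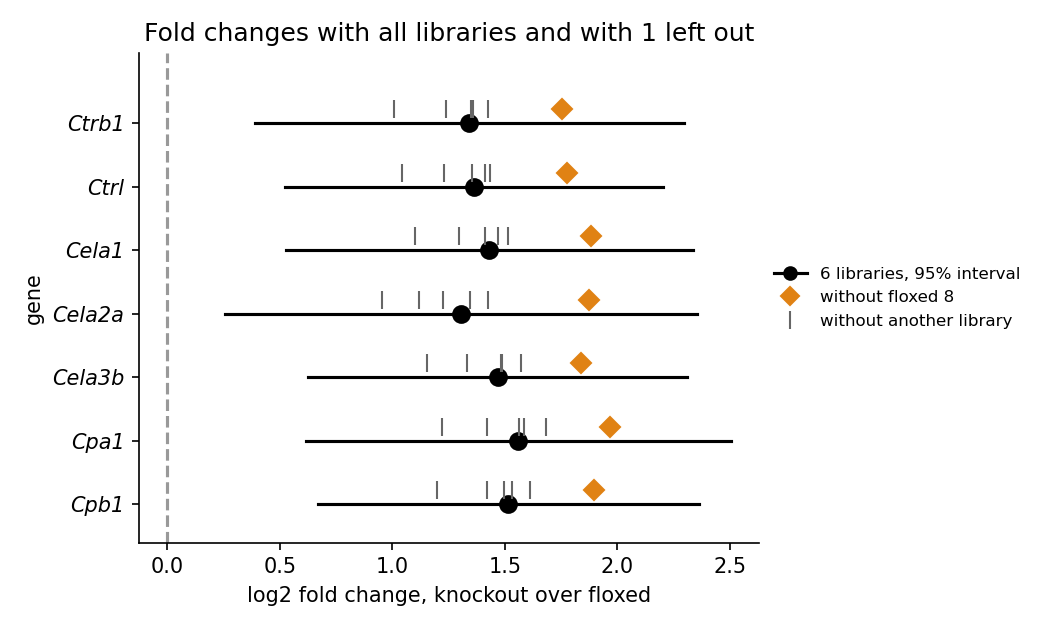
Log2 fold change of knockout over floxed islets for each enzyme gene: black points and lines are the edgeR estimate and 95% interval from 6 libraries, diamonds leave out floxed 8 and ticks leave out another library. All estimates lie above 0, and leaving out floxed 8 gives the largest value for each gene (1.75 to 1.97).

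The 7 genes kept nearly the same order of libraries. On log2 CPM centred on each gene's own mean, the average of the 7 genes was 0.62, 0.70 and 1.02 in knockout 11, 12 and 13, against -0.03, -1.67 and -0.64 in floxed 8, 18 and 19. Within a library the 7 centred values spanned 0.15 (floxed 19) to 0.32 (floxed 8) on the log2 scale. Floxed 18 was the lowest library for each gene, and the fold between floxed 8 and floxed 18 ran from 2.83 (Cela3b) to 3.68 (Cela2a). For each of the 7 genes this fold within the floxed group was larger than the fold between the group means (2.47 to 2.95).

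Together the 7 genes held 5.78%, 6.83% and 7.87% of all counts in knockout 11, 12 and 13, against 3.83%, 1.41% and 2.75% in floxed 8, 18 and 19. The mean share was 6.82 ± 1.04% in knockout and 2.67 ± 1.21% in the floxed group (SD, n = 3 each), 2.56-fold apart. Without floxed 8 the difference was 4.74 percentage points, against 4.16 with all libraries. Taken over counts other than Ins1 and Ins2, the shares were 9.95 ± 1.04% and 4.55 ± 1.96%. The insulin genes stood at 31.6 ± 4.90% of counts in knockout islets and 41.9 ± 1.64% in floxed islets (exact permutation p = 0.10, the smallest possible), and shares of a library sum to a fixed total, so the 2 measures are not independent.

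The make-up of the 7-gene sum was compared next. Ctrb1 made up 26.3 ± 2.25% of it in knockout and 27.4 ± 0.908% in floxed islets, Cela2a 23.4 ± 1.60% and 24.6 ± 2.30%, and Cpa1 15.3 ± 1.14% and 13.8 ± 0.580% (SD, n = 3 each). Cpa1 had the largest difference, 1.55 percentage points, and its groups overlapped (14.1%, 16.4% and 15.4% in knockout 11, 12 and 13, against 13.4%, 13.5% and 14.4% in floxed 8, 18 and 19). Exact two-sided permutation tests of the 7 shares gave p from 0.20 to 0.70, and 0.47 to 0.70 when adjusted over the 7 tests by Benjamini-Hochberg. By enzyme class, chymotrypsins made up 31.5 ± 2.27% of the sum in knockout and 32.8 ± 0.964% in floxed islets, elastases 43.9 ± 1.24% and 44.6 ± 1.84%, and carboxypeptidases 24.7 ± 1.80% and 22.6 ± 0.877% (exact permutation p = 0.40, 0.60 and 0.20).

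**Figure D3:**
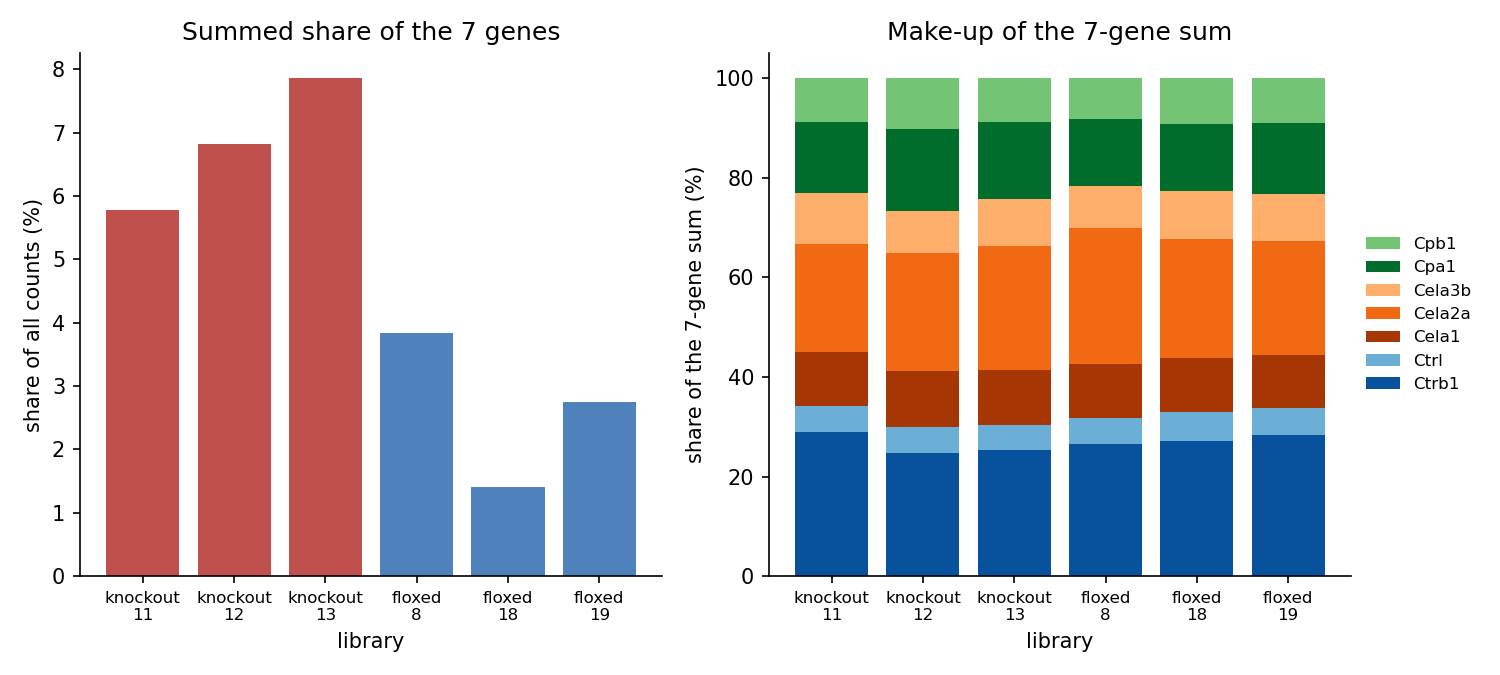
Left, the summed share of all counts held by the 7 enzyme genes in each library (bars, percent). Right, the share of each gene in that sum (stacked bars, percent); the sum runs from 1.41% to 7.87% of counts between libraries, while Ctrb1 stays between 24.7% and 28.8% of the sum.

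Per kilobase of transcript, Ctrb1 was the highest of the 7 genes, at 20948 ± 2677 CPM per kilobase in knockout and 8257 ± 4229 in the floxed group (SD, n = 3 each). Cela2a followed with 15498 ± 3370 and 6276 ± 3840 CPM per kilobase, and its knockout range overlapped that of Ctrb1. Cela3b, Cela1 and Cpa1 came next, with knockout means of 7118, 7008 and 6816 CPM per kilobase and overlapping ranges, so the order among these 3 is not resolved. Ctrl stood at 4163 ± 634 CPM per kilobase in knockout and 1618 ± 809 in floxed islets, and Cpb1 was lowest, at 2413 ± 333 and 844 ± 407. In knockout islets, the gaps between Cela2a and the next 3 genes, and from those to Ctrl and on to Cpb1, held across all 3 animals. In floxed islets the ranges over animals overlapped, but within each of the 6 libraries these gaps held and Ctrb1 stood above Cela2a. The order depends on the length used: the annotated Cpb1 transcript has 2718 bases, of which 1245 are coding, and per kilobase of coding sequence Cpb1 stood above Ctrl in each of the 6 libraries, with ranges over animals that overlapped.

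The 5 genes with the most similar profile were other exocrine genes. Over 7985 genes with a mean of at least 10 CPM, the root mean square difference of the centred log2 CPM from the mean of the 7 genes was smallest for 2210010C04Rik (0.05), then Prss2, a trypsinogen gene (0.09), Cel, which encodes bile salt-dependent lipase (0.10), Pnlip, pancreatic lipase (0.10), and Clps, colipase (0.10). The median over all genes compared was 0.93, and the 7 genes themselves lay between 0.02 and 0.11 from their mean. Prss2 had 8884, 8430 and 9849 CPM in knockout islets, while floxed islets had 4862, 1731 and 3567 CPM, the same order of floxed libraries as the 7 genes. These distances rest on 6 libraries and share the split between groups and the order among the floxed libraries.

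Cela3a, the near copy of Cela3b, stood at 44.5 ± 11.9 CPM in the knockout group and 14.8 ± 8.99 CPM in the floxed group (SD, n = 3 each), log2FC 1.60 (edgeR adjusted p = 0.204), with the shared reads noted above. It did not pass without floxed 8 either (edgeR adjusted p = 0.0557).

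Carboxypeptidases that are not digestive enzymes of acinar cells formed a list of their own. Of 9 measured genes 0 passed in either direction, 2 had positive and 7 negative log2FCs, and the median was -0.09. Cpe, the prohormone-processing carboxypeptidase of endocrine granules, had 3019 ± 235 CPM in the knockout group and 3222 ± 76.2 CPM in the floxed group (SD, n = 3 each), log2FC -0.09 (95% interval -0.54 to 0.35, edgeR adjusted p = 0.845). Ctsa, a lysosomal carboxypeptidase, had log2FC -0.37 (edgeR adjusted p = 0.111) and fell without floxed 8 (log2FC -0.45, edgeR adjusted p = 0.00435). It was the 1 gene of the 9 called lower in that setting, where 5.70% of tested genes were called lower. Floxed 8 was its lowest floxed library, so leaving that library out widens the difference by construction. The counts of Ctsa were not whole in any of the 6 libraries.

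Other digestive enzymes were set beside them. Of 6 trypsinogen genes 1 passed as higher, Prss1, a low-count gene (4.58 ± 1.98 CPM in the knockout group and 0.147 ± 0.145 CPM in the floxed group, SD, edgeR adjusted p = 0.0316), and the list's median log2FC was 1.58. Each of the 6 had counts that were not whole, in 1 library for Prss1 and in 4 to 6 libraries for the others. The Prss1 call was lost without knockout 11, knockout 13 or floxed 19 (edgeR adjusted p = 0.0877, 0.148 and 0.111). Of 13 lipase, colipase and amylase genes 0 passed in either direction, all 13 had positive values and the median was 1.45, with Pnliprp1, a lipase family gene, at 2.00 (edgeR adjusted p = 0.0695). Amy2a2, Amy2a3 and Amy2a4, near copies of one amylase gene, had identical counts and cannot be told apart. They are 1 measurement entered repeatedly among the 13, and their log2FC of 1.45 is the list median. Without floxed 8, 2 trypsinogens and 11 of the 13 lipase and amylase genes were called higher, against 8.59% of tested genes. The 11 include Amy2a2, Amy2a3 and Amy2a4. The median over all 11080 genes was -0.00 with 6 libraries and 0.01 without floxed 8.

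Of the summed counts of 28 measured digestive enzyme genes the 7 genes made up 43.7%, 41.9% and 42.1% in knockout 11, 12 and 13, against 43.2%, 48.1% and 46.5% in floxed 8, 18 and 19. The means were 42.6 ± 1.02% and 45.9 ± 2.51% (SD, n = 3 each), a difference of -3.33 percentage points (exact two-sided permutation p = 0.20; -4.70 without floxed 8), and the groups overlapped. Leaving the trypsinogens out of the panel gave 47.8 ± 1.95% and 52.0 ± 3.12% (exact permutation p = 0.20).

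Granule proteins and transcription factors of acinar cells were also set beside the enzymes. All 11 granule and other secreted genes had positive values (median log2FC 1.58) and 0 passed. With floxed 8 left out, 6 of them were called higher, against 8.59% of tested genes. Sycn, which encodes the granule protein syncollin, had log2FC 1.25 (edgeR adjusted p = 0.111) and Klk1, a tissue kallikrein, 1.85 (0.103). Of the 6 acinar transcription factor genes 0 passed. Ptf1a and Rbpjl, the partners in PTF1, had log2FC values of 2.70 and 2.30 (edgeR adjusted p = 0.0832 and 0.0790), Nr5a2 had 1.69 (0.0683) and Gata4 2.11 (0.131). Xbp1 and Bhlha15, which endocrine cells also express, had 0.17 and 0.04 (edgeR adjusted p = 0.520 and 0.965).

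The factors were also read relative to the enzymes. Their levels were low: floxed libraries had 1.01 to 3.18 CPM for Ptf1a, 3.89 to 11.7 for Rbpjl, 1.63 to 3.35 for Nr5a2 and 0.86 to 2.72 for Gata4. Counting error therefore weighed more on these ratios than on the enzyme values. The log2 ratio of Ptf1a to the summed CPM of the 7 genes was -12.8, -11.6 and -13.0 in knockout 11, 12 and 13, against -13.7, -13.6 and -13.6 in floxed 8, 18 and 19. That of Rbpjl was -10.9, -10.4 and -11.3 in the knockout libraries, against -11.8, -11.7 and -11.7 in the floxed ones. Neither gene's groups overlapped, with differences of 1.16 and 0.84, and the exact permutation p of 0.10 is the smallest possible (0.20 adjusted over the 4 factors compared). The groups overlapped for Nr5a2 and Gata4 (differences 0.14 and 0.59, exact permutation p = 0.60 and 0.30). This comparison was chosen after the values were seen, and for each of the 4 factors knockout 12 had the highest ratio. Knockout 12 was the library with more Col1a1, Col3a1, Lum and macrophage marker RNA. Without knockout 12 the differences were 0.73 for Ptf1a and 0.60 for Rbpjl, still with no overlap (exact permutation p = 0.10), 0.12 for Gata4 and -0.12 for Nr5a2.

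**Figure D4:**
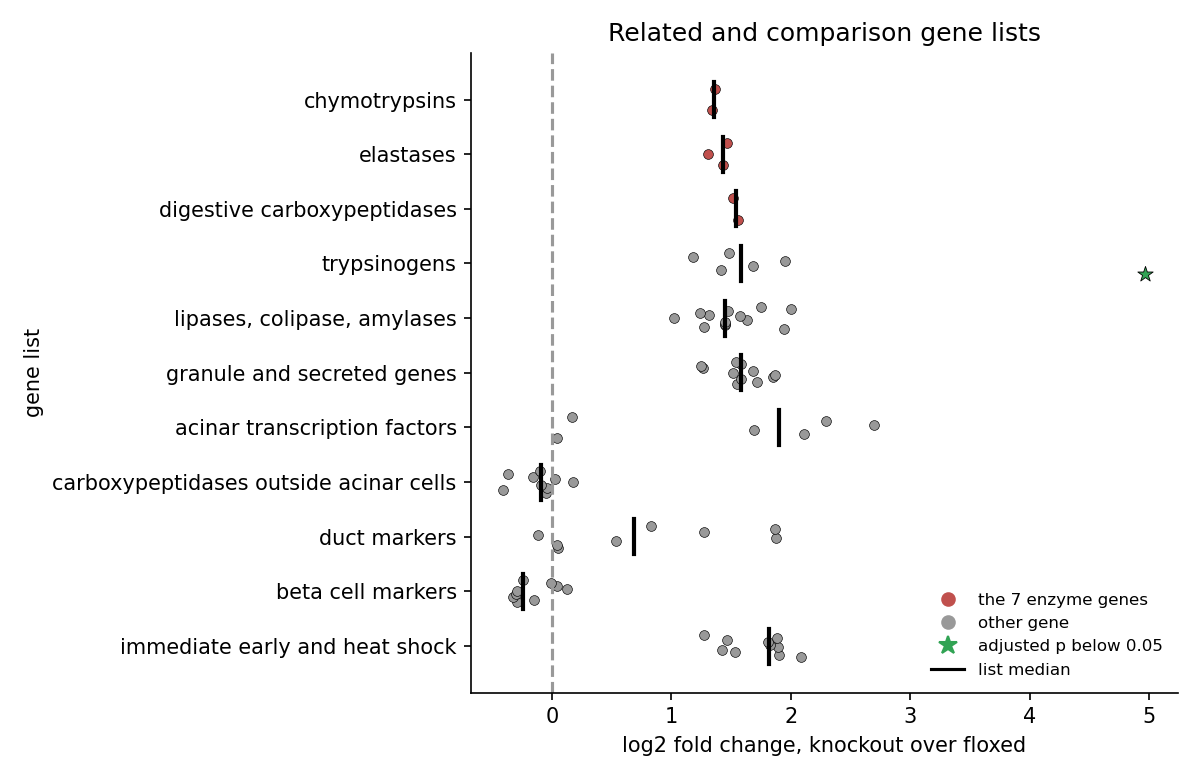
Log2FC values of knockout over floxed islets for each measured gene of 11 lists, with the list median as a vertical bar and stars for genes with an edgeR adjusted p below 0.05. The 7 enzyme genes lie between 1.30 and 1.56, among other acinar lists, while carboxypeptidases outside acinar cells have a median of -0.09.

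Markers of other cell types and of handling were read beside the enzymes. Of 8 measured duct markers 5 were higher with no overlap between groups, against 14.1% of all genes tested, and 0 passed the edgeR test. Of the 5, 1 (Muc1) was also in the granule list. The duct markers held 0.0820% to 0.103% of counts in knockout islets and 0.0602% to 0.0738% in floxed islets. Krt19, a duct keratin, had log2FC 1.88 (edgeR adjusted p = 0.0683), while Epcam and Krt7 had 0.05 and -0.11. Of the 10 immediate early and heat shock genes all had positive values (median log2FC 1.81), 9 were higher with no overlap, against the same 14.1%, and 0 passed. Their share was 1.76% to 1.87% in knockout and 0.207% to 1.20% in floxed islets. Without floxed 8, the setting in which the 7 enzyme genes passed, all 10 of these genes were also called higher (edgeR, median log2FC 3.10), against 8.59% of tested genes. Floxed 8 was the highest floxed library for each of the 10 and had been set apart by them. Leaving it out therefore widens their difference by construction. Of 9 beta cell markers 0 passed in either direction, with a median of -0.24, and they held 30.9% to 39.6% of counts in knockout islets and 42.9% to 46.5% in floxed islets. Of 10 endothelial markers 0 passed with all libraries (median log2FC -0.28), and 8 fell without floxed 8, where 5.70% of all genes were called lower (edgeR). Floxed 8 was the lowest floxed library for each of the 10, so leaving it out widens their difference by construction. Endothelial markers held 0.0438% to 0.0448% of counts in knockout islets, against 0.0436%, 0.0679% and 0.0614% in floxed 8, 18 and 19. With all libraries these shares overlapped. The part of acinar and duct tissue content and of handling in the enzyme values was not tested.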

How the data were processed

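RNA-seq of pancreatic islets from 6 mice was examined at the gene level. TRIzol-extracted RNA was sequenced as paired 150-base reads on a DNBSEQ-T7, per the labels' protocols. The submitters' processing notes name fastp, HISAT2 and StringTie with mm10; for versions, the counting rule and strand the sources used here give nothing. What the authors deposited is a table of estimated counts, without normalization, for 11106 genes, of which 12.8% had a value that was not whole. All value columns matched a sample label.

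Counts were rounded, filtered with edgeR's filterByExpr (minimum count 10, total 15; 11080 genes kept) and scaled by TMM. Knockout was compared with floxed with edgeR's quasi-likelihood test (edgeR 4.0.16, R 4.3.3, robust, no covariate), adjusted by Benjamini-Hochberg over all genes, threshold 0.05. Standard errors come from its F statistic. Intervals are at 95%. The fit was tested on simulated data. No 2 libraries of a group agreed within sampling noise (chi-square per gene 20.2 or more), and each numbered mouse counted as 1 sample. Shares use library totals and exact permutation tests. No list was tested as a set. Alternatives were RLE scaling, library totals, TMM without acinar genes, no filter, limma-voom (limma 3.58.1), DESeq2 1.42.0, a filter at a mean of 1 CPM, no robust option, and each library left out.

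The 8 genes, the lists and the tests were chosen with earlier results of these data known. Named genes were the members, up to 4 list genes with the smallest unadjusted p, the 5 nearest profiles, Ern1, Ins1, Ins2 and Cpe; other named genes were chosen after their values were seen. Cpa3 was not analysed here, and the results of 2 list genes are not reported here. Transcript lengths and overlaps come from GENCODE M21, positions and promoters from RefSeq, both GRCm38, the assembly of mm10.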

Additional observations from a re-analysis of the deposited data

How the results depend on the processing

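The log2 fold changes of the 7 enzyme genes stayed above 0 under all 14 alternatives, from 0.95 (Cela2a without floxed 18) to 1.97 (Cpa1 without floxed 8). With RLE scaling, library totals, TMM without acinar genes, either other filter, limma-voom and no robust option, 0 of the 7 were called. DESeq2 called 6 of the 7, and 567 genes in all against 45. With 1 library left out, between 0 and 7 of the enzyme genes were called, 7 only without floxed 8 (edgeR). The count over all genes then ran from 0 (without knockout 11 or knockout 13; 1861 and 1204 genes at an unadjusted edgeR p below 0.05) to 1584 (without floxed 8), with 8 without knockout 12, 18 without floxed 18 and 16 without floxed 19. Library totals moved the median of all genes to -0.09.

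The difference in the summed share of counts, 4.16 percentage points, ran from 3.53 to 4.74 with 1 library left out, and that in the share of the digestive enzyme panel from -4.70 to -2.24. The share of Cela2a in the 7-gene sum turned round without floxed 8 (0.10 percentage points against -1.19; range -2.09 to 0.10). The share of Cela3b turned round without knockout 11 (-0.22 against 0.21) and without floxed 8 (-0.13; range -0.22 to 0.65), with exact permutation p from 0.80 to 1 in these cases. The difference in the ratio of Nr5a2 to the 7 genes turned round without knockout 12 (-0.12 against 0.14), an alternative chosen after seeing the data. With 3 libraries a group these p-values cannot fall below 0.10. No paired analysis was possible because knockout and floxed mice carry different numbers, with no litter or batch named in the labels used here. Depth was at least 15013 counts for each enzyme gene and library.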

Other observations

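Genes that hold pancreatic proteases in check and receptors that trigger their release were measured too. Serpini2, which encodes a pancreatic serine protease inhibitor, rose to 71.1 ± 11.1 CPM in knockout islets, against 14.6 ± 3.97 CPM in floxed islets (SD, n = 3 each; log2FC 2.29, SE 0.20, edgeR adjusted p = 0.00963; 2.53 without floxed 8). The call was lost without knockout 11 or knockout 13 (log2FC 2.37 and 2.16, edgeR adjusted p = 0.0856 and 0.0769). It was the 1 gene to pass of 3 measured inhibitor genes. Spink1, the secreted trypsin inhibitor stored with the zymogens, had log2FC 1.55 (edgeR adjusted p = 0.279).

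Both measured receptors that drive enzyme secretion had higher values in every knockout library and did not pass. Cckar, the cholecystokinin receptor of mouse acinar cells, had log2FC 2.35 (edgeR adjusted p = 0.147). Chrm3, a muscarinic acetylcholine receptor that beta cells also express, had log2FC 0.44 (edgeR adjusted p = 0.0683). Without floxed 8 it was called higher (edgeR adjusted p = 0.0101), where 8.59% of tested genes were called higher.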
